A study of Danio rerio with 6 samples.

Results

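The genes described here encode the glutamate receptors of excitatory synapses and the proteins that hold and regulate them on the postsynaptic side. They were chosen by symbol alone, from names that begin with gria, grik, grin, grid, grm, dlg, dlgap, homer, shank, camk2, syngap or nptx followed by a number or letter, with at least 10 reads in at least 3 libraries. Of 14781 genes in the files 45 symbols had such a name, and all 45 met the read minimum. They comprise 20 receptor genes, 11 scaffold genes, 5 kinase and 3 inhibitor genes of the calcium/calmodulin-dependent kinase CaMKII, and 4 neuronal pentraxin genes. The other 2 matched by name only, dlg5a, of a cell polarity protein, and dlgap5, of a mitotic spindle protein, and no syngap symbol was among them. RNA was measured by bulk RNA-seq of spinal cord from adult zebrafish in 3 injured libraries, from fish at 1 week after complete transection (1 wpi), and in 3 sham libraries. Sham fish were clutchmates operated on without injury to the cord, although the treatment label of these libraries reads uninjured. The same stretch of cord was taken from both groups, reaching 2 mm to either side of the lesion. The labels give neither genotype, strain, sex nor age, and the methods name Ekkwill fish of both sexes for the study as a whole. How many fish went into a library is unknown here, and the p-values cover only how far these libraries differ among themselves, which may be technical.

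Reads counted in genes numbered 30147448, 26681874 and 21926842 in injured replicates 1, 2 and 3, and 19310220, 21490549 and 24161526 in sham replicates 1, 2 and 3. CPM below are a gene's reads relative to the size of its library after TMM scaling. They are not per gene length, so levels are compared between libraries and not between genes. The tissue held RNA of neurons (elavl3 at 198 CPM in injured and 213 CPM in sham cords) and of ependymo-radial glia (gfap at 10608 CPM in injured and 8354 CPM in sham cords). elavl3 shifted less than most of the 14 pan-neuronal genes tested, whose results are given further on. Of these, 13 had a negative log2 fold change (injured over sham), against 52.7% of all genes tested. Sham replicate 1 stood apart from the other sham libraries. A list of 14 oocyte genes, of which 13 were in the files, summed to 537 CPM in it and to at most 39.4 CPM in any other library, with 1 gene at 0 in all. Skeletal muscle genes (15 of 15 found) took 3.40%, 1.09% and 1.43% of counts in injured replicates 1, 2 and 3, against 1.87%, 0.766% and 0.569% in sham replicates 1, 2 and 3. Reads outside annotated genes made up 41.2% to 42.1% of all rows in injured libraries, against 43.8% in sham replicate 1 and 50.9% and 51.3% in sham replicates 2 and 3. The part of these differences in the results was not tested.

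Glutamate is the main excitatory transmitter of the vertebrate spinal cord, where it drives motor neurons and the interneurons of locomotor circuits. AMPA receptors carry the fast current, NMDA receptors pass calcium when the cell is already depolarised, kainate and delta receptors act at particular synapses, and metabotropic receptors signal through G proteins. Beneath the membrane, Dlg proteins bind receptor tails, Dlgap proteins link Dlg to Shank, and Shank and Homer reach receptors and the cytoskeleton. CaMKII reads the calcium that enters and strengthens the synapse, Camk2n proteins inhibit it, and neuronal pentraxins gather AMPA receptors from outside the cell.

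At 1 wpi most of these genes lay lower in injured than in sham cords. A filter on low counts kept 44 of the 45, all but nptx2b, and of these 39 (88.6%, against 52.7% of all genes tested) had a negative log2 fold change (log2FC, injured over sham) and 5 a positive one. By edgeR's quasi-likelihood test, adjusted over all 12804 genes tested, 5 fell, 1 rose and 38 did not pass the threshold of 0.05. The 5 were the AMPA receptor genes gria4a and gria2a, the CaMKII genes camk2b1 and camk2d2, and the neuronal pentraxin gene nptx1l. The gene that rose was grid2ipb, which encodes a delphilin. Among all genes tested, 4.83% were called lower and 5.81% higher, against 11.4% of the 44 members lower. At an unadjusted p under 0.05, edgeR had 21 members lower (47.7%, against 19.6% of all genes) and 2 higher (18.6% of all genes). The next 16 members by adjusted p, from 0.0514 to 0.0964, were all on the lower side. DESeq2 on the same libraries called 21 members lower and 1 higher, that is 47.7% of the members lower against 14.8% of all genes. In 21 members every injured library lay below every sham library (47.7%, against 21.8% of all genes tested), and in 2 members, grid2ipb and grm6b, every injured library lay above (22.9% of all genes tested). The median log2FC of the members was -0.42, against -0.03 for all genes tested. CPM are relative, so in bulk tissue fewer neurons, less RNA per neuron and more RNA from other cells cannot be told apart. The members were chosen by name and not at random, so these shares describe them and are not a test of the group.

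**Figure D1:**
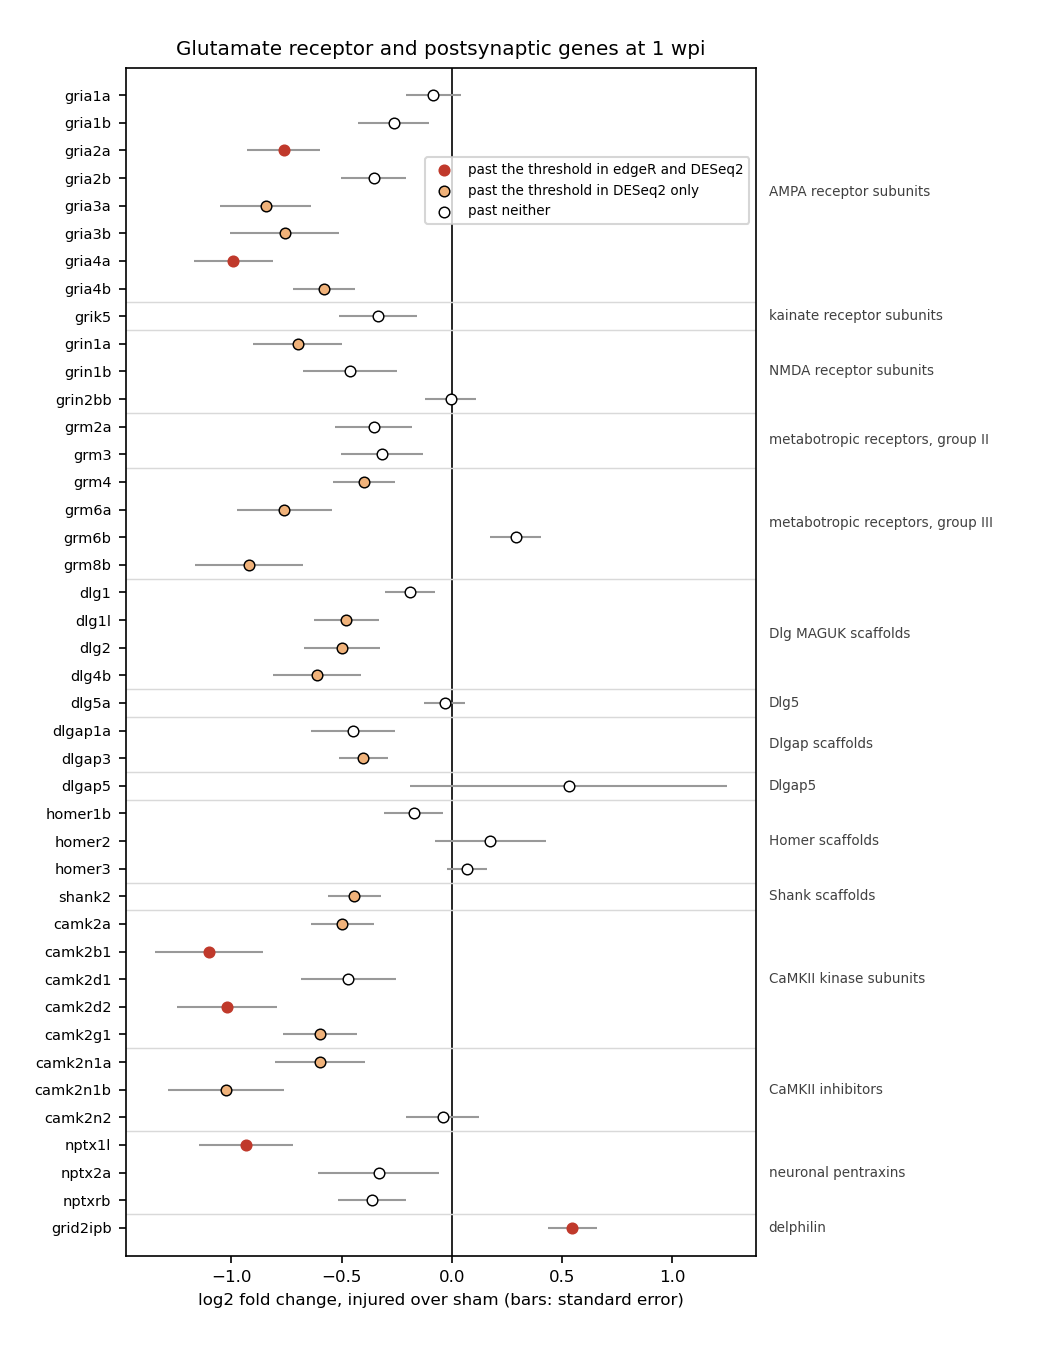
Log2FC of 42 of the 44 tested members, injured over sham (x axis), with its standard error as a bar, grouped by class; 37 of 42 points lie left of 0. Red points passed the threshold in edgeR and DESeq2 (5 lower, 1 higher), orange points in DESeq2 only (16 genes), and open points in neither.

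The number of calls rested on single libraries. In 34 of the 44 members sham replicate 1 was the lowest of the sham libraries. In 19 of these, among them all 5 that fell, it lay above every injured library, in 8 within the injured range and in 7 below it. Without sham replicate 1, edgeR called 30 of 45 members lower (66.7%, against 28.2% of all genes) and 2 higher (29.0% of all genes), including all 6 called with it. When a library other than this was removed, edgeR called 0% of all genes and so no member (14 to 17 members lower and 1 or 2 higher by unadjusted p under 0.05), and DESeq2 gave 7 to 9 members lower and 1 higher, with 6.11% to 7.13% of all genes lower and 6.67% to 8.23% higher. With the replicate number as a block edgeR called 0 of all 12804 genes and no member, with 22 members lower and 1 higher at an unadjusted p under 0.05. Over the members the injured libraries were close to each other, with a median SD of 5.26% of the mean, against 20.5% in sham cords (5.70% and 16.1% over all genes tested).

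**Figure D2:**
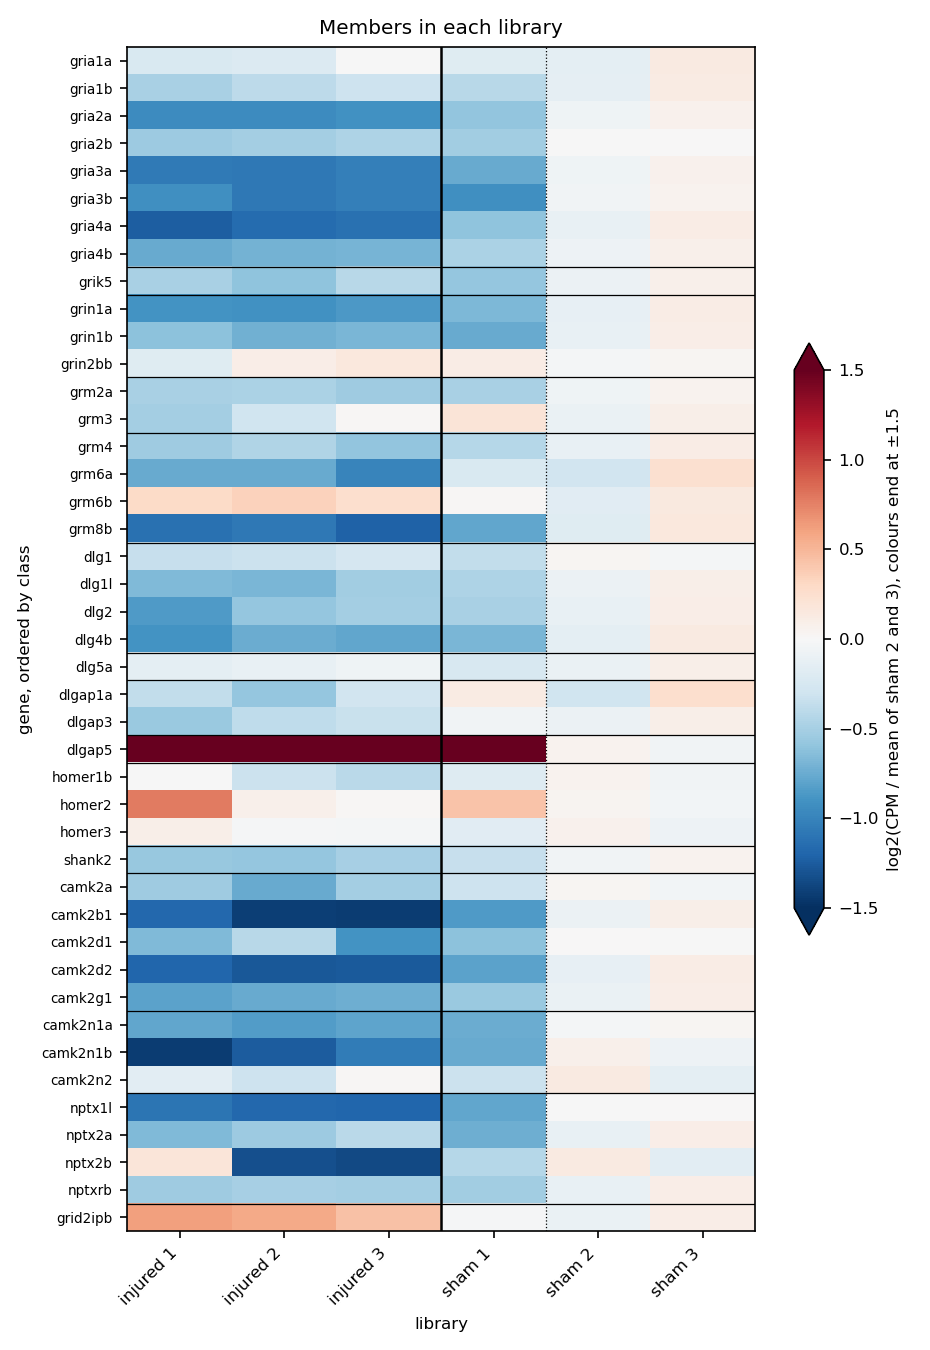
Each row is 1 of 43 members and each column a library, injured left of sham, and the colour is the log2 ratio of its CPM to the mean of sham replicates 2 and 3. In 34 of the 43 rows sham replicate 1 is the lowest sham library, in 19 of them above every injured library, and dlgap5 runs the other way, with 23.3 CPM in sham replicate 1 against 4.04 and 3.75 CPM in the others.

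Of 8 AMPA receptor genes 2 were lower past edgeR's threshold (4.83% of all genes tested) and 5 past that of DESeq2 (14.8%). All 8 had a negative log2FC (52.7% of all genes tested). Their median was -0.67 and their range -0.99 to -0.0838. Summed over the 8 genes the level was 426, 429 and 443 CPM in injured replicates 1, 2 and 3, against 512, 743 and 815 CPM in sham replicates 1, 2 and 3. gria4a, a subunit of rapidly gating AMPA receptors, measured 45.2, 47.7 and 49.0 CPM in injured replicates 1, 2 and 3, against 69.7, 98.0 and 114 CPM in sham replicates 1, 2 and 3. All injured libraries lay below all sham libraries, with sham replicate 1 the nearest to them. Its mean was 47.3 ± 1.95 CPM in injured cords and 94.0 ± 22.6 CPM in sham cords (SD, n = 3 each), a log2FC of -0.99 (SE 0.179, edgeR adjusted p = 0.0365). gria2a encodes the subunit that in mammals, through RNA editing, keeps AMPA receptors from passing calcium. It measured 82.1, 82.0 and 84.2 CPM in injured replicates 1, 2 and 3, against 105, 151 and 165 CPM in sham replicates 1, 2 and 3, again without overlap. Its log2FC was -0.76 (SE 0.167, edgeR adjusted p = 0.0445), which is 0.589 of the sham level.

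Each of these genes has a paralog that did not pass edgeR's test. gria4b measured 88.3, 91.6 and 92.4 CPM in injured replicates 1, 2 and 3, against 108, 142 and 157 CPM in sham replicates 1, 2 and 3, without overlap, and its log2FC of -0.58 (SE 0.141) did not pass in edgeR (adjusted p = 0.0514) and passed in DESeq2 (adjusted p = 0.00278). gria2b measured 65.6, 67.1 and 69.4 CPM in injured replicates 1, 2 and 3, against 66.8, 95.1 and 96.3 CPM in sham replicates 1, 2 and 3. Here sham replicate 1 lay within the injured range and the groups overlapped, with a log2FC of -0.35 (edgeR adjusted p = 0.135). gria3a and gria3b had log2FC of -0.84 and -0.76 (adjusted p = 0.0520 and 0.0848 from edgeR, 0.00172 and 0.0192 from DESeq2), both without overlap. For gria3b the margin was thin, with 52.5 CPM both in injured replicate 1 and in sham replicate 1. gria1a and gria1b were the least shifted of the family, with log2FC of -0.0838 and -0.26 (adjusted p = 0.642 and 0.266 from edgeR), and their groups overlapped. With sham replicate 1 left out edgeR called 7 of the 8 lower, all but gria1a, against 28.2% of all genes.

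**Figure D3:**
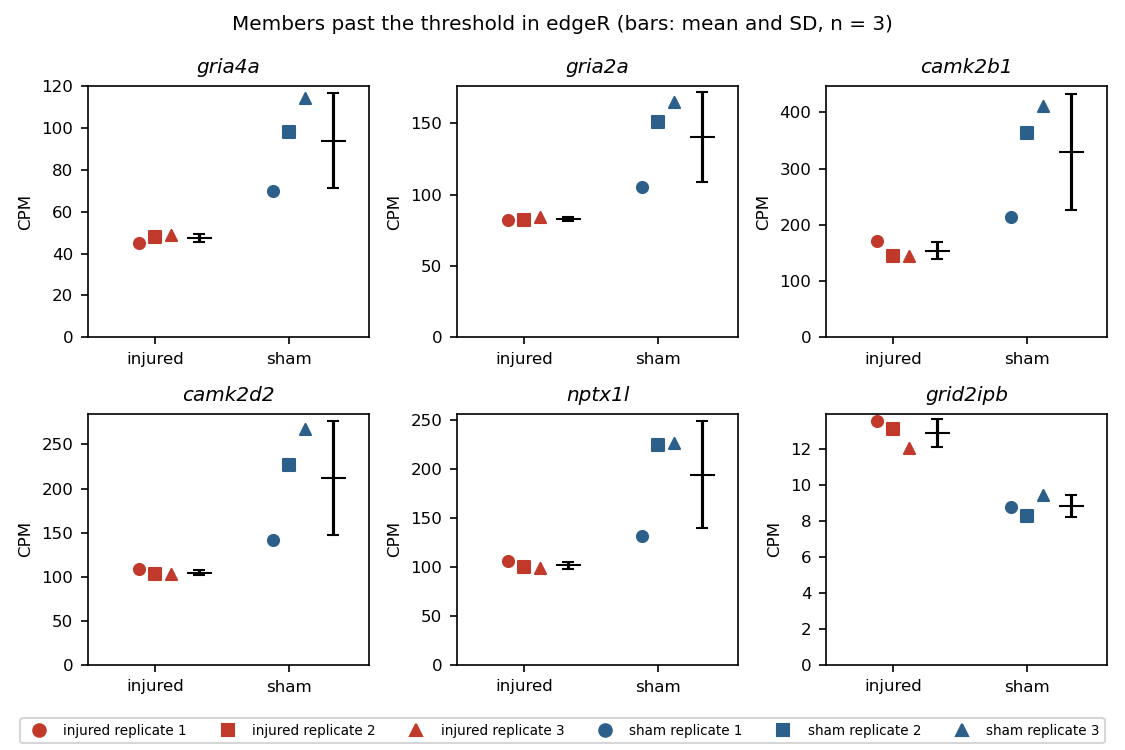
CPM of the 6 members past edgeR's threshold in each library, injured left of sham, with the mean and SD of each group (n = 3) beside the points and axes from 0. In the 5 that fell, all 3 injured libraries lie below all 3 sham libraries and sham replicate 1 is the lowest sham, and in grid2ipb the injured libraries lie above.

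Of the NMDA receptor genes, grin1a, like grin1b, encodes a form of the subunit that every NMDA receptor needs. grin1a measured 400.2, 396 and 411 CPM in injured replicates 1, 2 and 3, against 467, 687 and 806 CPM in sham replicates 1, 2 and 3. The groups did not overlap, but the sham libraries ranged widely, and the log2FC of -0.70 (SE 0.201) did not pass in edgeR (adjusted p = 0.0676) and passed in DESeq2 (adjusted p = 0.00536). Its paralog grin1b measured 104, 96.6 and 99.1 CPM in injured replicates 1, 2 and 3, against 94.6, 148 and 171 CPM in sham replicates 1, 2 and 3, where sham replicate 1 was the lowest of the 6 libraries. Its log2FC was -0.46 (edgeR adjusted p = 0.161). grin2bb, a glutamate-binding subunit of the GluN2B type, prominent in developing synapses of mammals, had a log2FC near 0. It measured 19.04, 23.2 and 23.9 CPM in injured replicates 1, 2 and 3, against 23.3, 21.2 and 21.9 CPM in sham replicates 1, 2 and 3, a log2FC of -0.00597 (SE 0.116, edgeR adjusted p = 0.973). Its sign changed between settings. With sham replicate 1 left out it was 0.0332 (adjusted p = 0.815 from edgeR), whereas grin1a and grin1b then had log2FC of -0.89 and -0.67 (adjusted p = 0.000320 and 0.000746).

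The single kainate receptor gene analysed here, grik5, encodes a high-affinity subunit that works with other kainate subunits. It measured 27.4, 25.2 and 28.7 CPM in injured replicates 1, 2 and 3, against 25.7, 36.2 and 40.5 CPM in sham replicates 1, 2 and 3, and the groups overlapped (log2FC -0.33, edgeR adjusted p = 0.212). Sham replicate 1 lay within the injured range, and without it the gene was called lower (adjusted p = 0.00351 from edgeR).

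None of the 7 metabotropic receptor genes passed edgeR's test. At an unadjusted p under 0.05 edgeR had 3 lower (19.6% of all genes) and 1 higher (18.6%). DESeq2 called 3 lower (14.8% of all genes) and 0 higher (14.8%). Group III receptors, which mostly sit on presynaptic endings and reduce release, showed the widest spread. grm8b measured 6.03, 6.24 and 5.64 CPM in injured replicates 1, 2 and 3, against 7.66, 11.6 and 14.7 CPM in sham replicates 1, 2 and 3. The groups did not overlap, with a log2FC of -0.92 (SE 0.244, adjusted p = 0.0595 in edgeR and 0.00871 in DESeq2). grm4 gave a log2FC of -0.40 (adjusted p = 0.0964 in edgeR and 0.0492 in DESeq2), from 59.1 ± 2.85 CPM in injured cords and 77.8 ± 14.3 CPM in sham cords (SD, n = 3 each). The paralogs of grm6, known for its role in ON bipolar cells of the retina, had log2FC of opposite sign, and the difference between them was tested only as a share of reads, given further on. grm6a measured 2.45, 2.45 and 2.09 CPM in injured replicates 1, 2 and 3, against 3.56, 3.39 and 4.91 CPM in sham replicates 1, 2 and 3, a log2FC of -0.76 (edgeR adjusted p = 0.0649). grm6b measured 13.0, 13.5 and 12.7 CPM in injured replicates 1, 2 and 3, against 10.7, 9.48 and 11.8 CPM in sham replicates 1, 2 and 3, a log2FC of 0.29 (edgeR adjusted p = 0.127). Neither pair of groups overlapped, and in these paralogs sham replicate 1 lay within the range of the other sham libraries. Group II was represented by grm2a and grm3, with log2FC of -0.35 and -0.32 (adjusted p = 0.187 and 0.253 from edgeR) and overlapping groups.

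Among the 11 scaffold genes none fell in edgeR, with 5 lower at an unadjusted p under 0.05 (19.6% of all genes) and in DESeq2 (14.8%). They were dlg1l, dlg2, dlg4b, dlgap3 and shank2. In each of them the injured libraries lay below the sham libraries, as in 21.8% of all genes tested. dlg4b encodes a form of PSD-95, the most studied scaffold of the postsynaptic density. It measured 54.2, 60.2 and 59.1 CPM in injured replicates 1, 2 and 3, against 62.8, 91.6 and 111 CPM in sham replicates 1, 2 and 3, with a log2FC of -0.61 (SE 0.201, adjusted p = 0.0853 in edgeR and 0.0247 in DESeq2). dlg2, of the related PSD-93 type, and dlg1l, of the SAP97 type, had log2FC of -0.50 and -0.48 (adjusted p = 0.0949 and 0.0752 from edgeR). The margin was thin in dlg2, with 36.7 CPM in the highest injured and 37.3 CPM in the lowest sham library. dlg1, the other SAP97 gene, overlapped between groups and had one of -0.19 (adjusted p = 0.260). dlgap3 measured 10.4, 11.8 and 12.2 CPM in injured replicates 1, 2 and 3, against 14.8, 14.4 and 16.3 CPM in sham replicates 1, 2 and 3. Unlike in most members, sham replicate 1 lay among the other sham libraries here, and the log2FC was -0.40 with all libraries and -0.42 without it (adjusted p = 0.0622 and 0.0163 from edgeR). dlgap1a had a log2FC of -0.45 with overlapping groups (adjusted p = 0.138). shank2, whose product links Dlgap and Homer proteins, measured 24.9, 24.7 and 26.2 CPM in injured replicates 1, 2 and 3, against 29.1, 35.5 and 38.4 CPM in sham replicates 1, 2 and 3, a log2FC of -0.44 (adjusted p = 0.0614 in edgeR and 0.0115 in DESeq2).

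None of the 3 Homer genes passed in edgeR or DESeq2 or had an unadjusted p under 0.05 in edgeR, and all 3 overlapped between groups. homer1b, homer2 and homer3 had log2FC of -0.17, 0.17 and 0.0685 (SE 0.134, 0.252 and 0.0908, adjusted p = 0.374, 0.631 and 0.5998 from edgeR), and none passed with sham replicate 1 left out. Homer proteins also occur in skeletal muscle of mammals. homer2 measured 16.1, 9.88 and 9.51 CPM in injured replicates 1, 2 and 3, against 12.7, 9.66 and 9.16 CPM in sham replicates 1, 2 and 3, highest in injured replicate 1 and sham replicate 1, the libraries with the highest shares of muscle reads (3.40% and 1.87%). Without injured replicate 1 its log2FC was -0.11 (adjusted p = 0.734 from edgeR). The part of muscle RNA in homer2 was not tested.

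The matches by name alone were dlg5a and dlgap5. dlg5a averaged 106 ± 2.95 CPM in injured cords and 108 ± 12.3 CPM in sham cords (SD, n = 3 each), with a log2FC of -0.0331 (edgeR adjusted p = 0.812). dlgap5, whose product binds spindle microtubules, measured 14.8, 14.5 and 15.4 CPM in injured replicates 1, 2 and 3, against 23.3, 4.04 and 3.75 CPM in sham replicates 1, 2 and 3. The highest value was in a sham library, so the groups overlapped and the log2FC of 0.53 had a standard error of 0.719 (edgeR adjusted p = 0.608). A list of 10 cell cycle genes was likewise highest in sham replicate 1 and lowest in sham replicates 2 and 3, with sums of 587, 572 and 571 CPM in injured replicates 1, 2 and 3, against 816, 232 and 202 CPM in sham replicates 1, 2 and 3. Without sham replicate 1 dlgap5 was called higher, with a log2FC of 1.94 (adjusted p = 8.31e-05 from edgeR), and it was the only member besides grid2ipb called higher there. Sham replicate 1 was also the library with oocyte RNA, at 537 CPM over the oocyte list against at most 39.4 CPM in any other library. The parts of dividing cells and of oocyte RNA in dlgap5 were not tested.

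**Figure D4:**
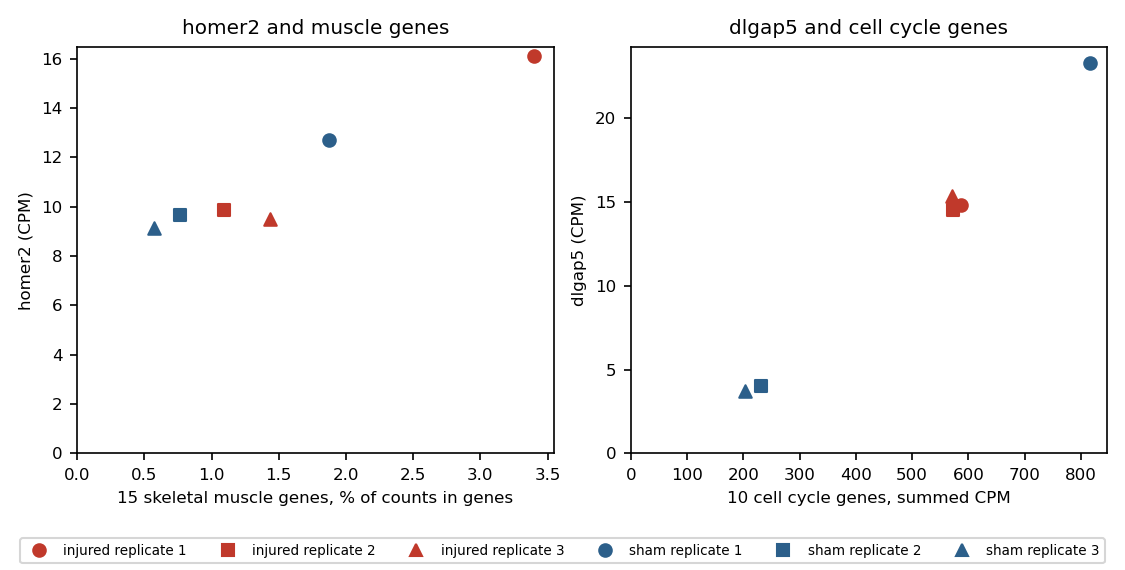
Left, homer2 (CPM) against the share of counts taken by 15 skeletal muscle genes (%), and right, dlgap5 (CPM) against the summed CPM of 10 cell cycle genes, 1 point per library, injured red and sham blue. Injured replicate 1 and sham replicate 1 are the highest in the left panel, and sham replicate 1 lies above all others in the right one.

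Of 5 genes of the CaMKII kinase 2 fell in edgeR (4.83% of all genes tested) and 4 in DESeq2 (14.8%). All 5 had a negative log2FC (median -0.60), against 52.7% of all genes tested. camk2b1, a beta subunit, which in mammals binds actin, measured 171, 145 and 144 CPM in injured replicates 1, 2 and 3, against 214, 363 and 411 CPM in sham replicates 1, 2 and 3. Its mean was 154 ± 15.3 CPM in injured cords and 329 ± 103 CPM in sham cords (SD, n = 3 each), 0.466 of the sham level, with a log2FC of -1.10 (SE 0.246, edgeR adjusted p = 0.0463). camk2d2, a delta subunit, measured 108, 103 and 103 CPM in injured replicates 1, 2 and 3, against 142, 226 and 268 CPM in sham replicates 1, 2 and 3. Its log2FC was -1.02 (SE 0.226, edgeR adjusted p = 0.0459). In both genes the injured libraries lay below all sham libraries, and the sham spread was wide. camk2g1, a gamma subunit, measured 294, 304 and 308 CPM in injured replicates 1, 2 and 3, against 349, 477 and 547 CPM in sham replicates 1, 2 and 3 (log2FC -0.60, adjusted p = 0.0655 in edgeR and 0.00587 in DESeq2). camk2a, of the alpha type that dominates in the mammalian forebrain, averaged 8.08 ± 0.728 CPM in injured cords and 11.4 ± 1.40 CPM in sham cords (SD, n = 3 each), a log2FC of -0.50 (adjusted p = 0.0671). camk2d1 had one of -0.47 with overlapping groups (adjusted p = 0.162). CaMKII is also present in muscle, whose genes took larger shares in injured replicate 1 and sham replicate 1. Within the injured group camk2b1 was highest in replicate 1, whereas within the sham group it was lowest in replicate 1. The part of muscle RNA in the level of camk2b1 was not tested.

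None of the 3 CaMKII inhibitor genes passed edgeR's test. At an unadjusted p under 0.05 (19.6% of all genes) and in DESeq2 (14.8%) 2 were lower. camk2n1a measured 128, 122 and 127 CPM in injured replicates 1, 2 and 3, against 131, 214 and 225 CPM in sham replicates 1, 2 and 3, without overlap, with a log2FC of -0.60 (SE 0.203, adjusted p = 0.0916 in edgeR and 0.0251 in DESeq2). camk2n1b was scarce, at 2.44 ± 0.320 CPM in injured cords and 4.97 ± 1.38 CPM in sham cords (SD, n = 3 each), and had a log2FC of -1.02 (SE 0.262, adjusted p = 0.0558 in edgeR and 0.0104 in DESeq2). camk2n2 overlapped between groups, with a log2FC of -0.0413 (adjusted p = 0.867).

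Of the neuronal pentraxin genes nptx1l fell. It encodes a secreted protein of the type that gathers AMPA receptors, and measured 106, 100.03 and 99.5 CPM in injured replicates 1, 2 and 3, against 132, 225 and 227 CPM in sham replicates 1, 2 and 3. Its mean was 102 ± 3.53 CPM in injured cords and 195 ± 54.6 CPM in sham cords (SD, n = 3 each), a log2FC of -0.93 (SE 0.214, edgeR adjusted p = 0.0469). nptxrb, which encodes the membrane-bound pentraxin receptor, measured 104, 106 and 106 CPM in injured replicates 1, 2 and 3, against 105, 139.5 and 161 CPM in sham replicates 1, 2 and 3. Sham replicate 1 fell inside the injured range, and the log2FC of -0.36 did not pass (edgeR adjusted p = 0.142, 0.00146 without that library). nptx2a, at 1.24 to 2.21 CPM over the 6 libraries, had a log2FC of -0.33 (adjusted p = 0.399). nptx2b had 15, 5 and 4 reads in injured replicates 1, 2 and 3, against 7, 11 and 10 reads in sham replicates 1, 2 and 3. It was close to the read minimum, below which no symbol lay, and the filter on low counts removed it with all libraries. Without sham replicate 1 nptx2b passed the filter, with a log2FC of -0.59 (edgeR adjusted p = 0.419).

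grid2ipb was the only member that rose. Delphilin is a scaffold protein, best known from mouse Purkinje cells. grid2ipb measured 13.6, 13.1 and 12.1 CPM in injured replicates 1, 2 and 3, against 8.79, 8.27 and 9.49 CPM in sham replicates 1, 2 and 3. All injured libraries lay above all sham libraries, and sham replicate 1 lay between the other sham libraries. Its mean was 12.9 ± 0.787 CPM in injured cords and 8.85 ± 0.613 CPM in sham cords (SD, n = 3 each), 1.46 times the sham level, with a log2FC of 0.55 (SE 0.111, adjusted p = 0.0424 in edgeR and 0.00217 in DESeq2). Without sham replicate 1 the log2FC was 0.54 (adjusted p = 0.00619), and with any other single library left out it was 0.50 to 0.60, with edgeR's adjusted p from 0.115 to 0.175.

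The make-up of the families was measured as each gene's share of the reads of its family within a library. Such shares do not depend on library scaling. Of reads of gria2a and gria2b together, gria2a took 55.6, 55.0 and 54.8% in injured replicates 1, 2 and 3, against 61.2, 61.4 and 63.1% in sham replicates 1, 2 and 3. Of reads of gria4a and gria4b, gria4a took 33.8, 34.3 and 34.6% in injured replicates 1, 2 and 3, against 39.2, 40.8 and 42.1% in sham replicates 1, 2 and 3. In these pairs the a paralog had the smaller share in injured cords, and sham replicate 1, which lay toward the injured libraries in level, was on the sham side in share. The grm6 pair is given further on, and the remaining pairs had other values. gria1a averaged 66.6% of its pair in injured and 63.9% in sham libraries, and gria3a 56.5% in injured and 58.2% in sham libraries, with overlapping groups in both pairs (exact permutation p = 0.2 and 0.4). dlg1 averaged 45.2% of the reads of dlg1 and dlg1l in injured and 40.4% in sham libraries, and camk2n1a 98.1% of its pair in injured and 97.5% in sham libraries, both without overlap and with the larger share in injured cords.

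Among all gria reads, those of gria2a and gria2b together made up 34.6, 34.8 and 34.6% in injured replicates 1, 2 and 3, against 33.6, 33.2 and 32.1% in sham replicates 1, 2 and 3. gria2b alone took 15.4% to 15.7% in injured and 11.8% to 13.1% in sham libraries, while gria2a took 18.99% to 19.2% in injured and 20.3% to 20.6% in sham libraries. The grin genes analysed here were grin1a, grin1b and grin2bb, so shares of grin reads cover these alone. Of grin reads, grin1a took 76.4, 76.8 and 77.0% in injured replicates 1, 2 and 3, against 79.8, 80.2 and 80.7% in sham replicates 1, 2 and 3. The share of grin2bb was 3.64, 4.48 and 4.48% in injured replicates 1, 2 and 3, against 3.99, 2.47 and 2.19% in sham replicates 1, 2 and 3, and here sham replicate 1 lay within the injured range. The injured mean was 1.32 percentage points higher with all libraries and 1.87 without sham replicate 1, when the groups no longer overlapped.

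Of reads of grm6a and grm6b, grm6a took 15.9, 15.4 and 14.2% in injured replicates 1, 2 and 3, against 24.9, 26.4 and 29.4% in sham replicates 1, 2 and 3, without overlap. Of CaMKII kinase reads, camk2g1 took 49.7, 53.3 and 53.9% in injured replicates 1, 2 and 3, against 48.1, 43.6 and 43.6% in sham replicates 1, 2 and 3, and camk2b1 took 28.9, 25.4 and 25.2% in injured replicates 1, 2 and 3, against 29.5, 33.2 and 32.8% in sham replicates 1, 2 and 3. For each 100 kinase reads there were 23.5, 23.3 and 24.3 reads of Camk2n inhibitor genes in injured replicates 1, 2 and 3, against 19.7, 21.1 and 19.1 in sham replicates 1, 2 and 3. In 19 of 25 shares compared the groups did not overlap. In CPM, groups did not overlap in 21.8% of all genes tested on the lower and 22.9% on the higher side. For shares of other families no such figure was computed. Shares of a family depend on each other, and 22 of the 25 were added after the members' values had been seen. An exact permutation test (2-sided) gave p = 0.1 for each of the 19, the smallest that 3 libraries against 3 allow, or 0.132 adjusted over the 25.

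**Figure D5:**
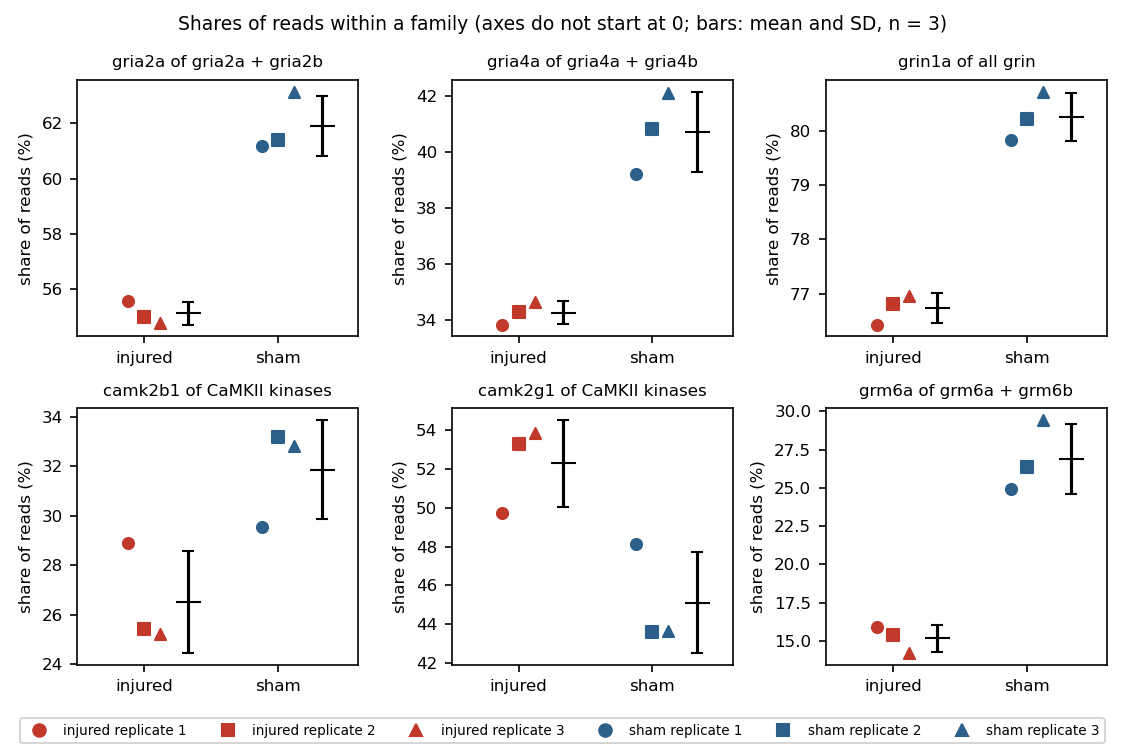
Share of reads (%) within a family in each library, injured left of sham, for gria2a, gria4a and grm6a in their paralog pairs, grin1a among grin reads and camk2b1 and camk2g1 among CaMKII kinase reads, with the mean and SD of each group (n = 3). The axes do not start at 0. All 6 shares shown are among the 22 added after the members' values had been seen, so the lack of overlap in these panels is not a test.

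Genes of neurons in general were followed with a marker list. Of its 14 pan-neuronal genes tested, 2 fell (4.83% of all genes) and 12 did not pass edgeR's test. At an unadjusted p under 0.05 edgeR had 8 lower (19.6% of all genes) and 1 higher (18.6%). DESeq2 called 8 lower (14.8% of all genes) and 1 higher (14.8%). The median log2FC of the 14 was -0.51, against -0.42 for the 44 members. The summed level of the list was 13883, 14463 and 13952 CPM in injured replicates 1, 2 and 3, against 17899, 28220.5 and 31892 CPM in sham replicates 1, 2 and 3. The 2 that fell were the neurofilament gene nefmb, with a log2FC of -1.84 (adjusted p = 0.0294), and snap25a, of the vesicle fusion machinery, with -1.31 (adjusted p = 0.0436). elavl3, of an RNA-binding protein of neurons, had one of -0.11 (adjusted p = 0.458). The part of neuron number in the members' values was not tested. edgeR without sham replicate 1 called 12 of the 14 lower (28.2% of all genes) and 1 higher (29.0% of all genes).

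Other proteins of the glutamate synapse were followed with lists of genes by name. Of 7 tested genes for auxiliary subunits of AMPA and kainate receptors 1 fell and all 7 had negative log2FC (median -0.44). It was cacng7a, which encodes a protein of the family that escorts AMPA receptors, with a log2FC of -0.93 (SE 0.210, edgeR adjusted p = 0.0463). Of 24 genes for other postsynaptic proteins 3 fell, none rose and 21 did not pass. They were ppp3cb, a catalytic subunit of the phosphatase calcineurin that opposes CaMKII at synapses, grip2a, which binds AMPA receptor tails, and the scaffold gene magi2a, with log2FC of -1.32, -1.06 and -0.52 (adjusted p = 0.0379, 0.0346 and 0.0437 from edgeR). Of 25 genes for synaptic adhesion proteins 3 fell and all 25 had negative log2FC. They were the cerebellin gene cbln2a, il1rapl1b and the neurexin gene nrxn3b, with -1.16, -0.74 and -0.71 (adjusted p = 0.0463, 0.0424 and 0.0474). The adhesion list also holds nptxrb, described above. Genes for loading, uptake and recycling of glutamate include many of glia. Of 17 tested 1 rose and none was lower in edgeR, with a median log2FC of 0.23. At an unadjusted p under 0.05 edgeR had 4 lower (19.6% of all genes), and DESeq2 called 3 lower (14.8%). The gene that rose was glud1a, of glutamate dehydrogenase, with 0.86 (SE 0.201, adjusted p = 0.0481). Leaving out sham replicate 1, the counts lower and higher were 6 and 0 for auxiliary subunits, 14 and 4 for other postsynaptic proteins, 17 and 0 for adhesion proteins and 4 and 2 for glutamate handling. Of all genes tested, edgeR called 4.83% lower and 5.81% higher with all libraries, and 28.2% lower and 29.0% higher without sham replicate 1. With all libraries 52.7% of all genes tested had a negative log2FC.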

How the data were processed

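The authors deposited raw counts of reads per gene symbol, made from single-end reads aligned to danRer10 with TopHat2, filtered on mapping quality with SAMtools 1.3.1 and counted with HTSeq 0.6.0. The submitters' processing notes name Trim Galore too. The sources used here give neither annotation nor strand setting. Overlapping genes cannot be told apart, and paralogs with near-identical stretches may be undercounted. The 5 closing rows, of reads outside genes or ambiguous (41.8% to 51.9% of all rows) were left out. Names came from the files, and 5 members (among them dlg1, dlg1l, homer3 and shank2) are synonyms in RefSeq's GRCz12tu table.

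Genes were kept by filterByExpr (minimum count 10), scaled by TMM and tested with edgeR 4.0.16 (R 4.3.3), using quasi-likelihood with injury as the only term and Benjamini-Hochberg adjustment. Standard errors (SE) came from the fold change and its F statistic. Libraries of a group differed by more than sampling noise (chi-square per degree of freedom 11.8 to 167). The test was also run on simulated data, in which no library was made to stand apart as sham replicate 1 did. Alternatives were DESeq2 1.42.0, limma 3.58.1 (voom with sample weights), other scalings and filters, a replicate block and each library left out. Named were all called members, their paralogs, the 3 members of each class with the highest CPM, those nearest the read minimum and up to 4 called genes per list, and further members and ratios were named after their values were seen. Members and lists were chosen with earlier results of these data known. Single-gene values of 2 members and of some listed genes are not reported here, though counts include them. Planned shares of grin2b among grin2 and of grm5 were not analysed here.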

Additional observations from a re-analysis of the deposited data

How the results depend on the processing

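RLE scaling, scaling without muscle, oocyte and dominant genes, and a filter of 10 reads in 3 or more libraries left the counts of members at 5 lower and 1 higher. Upper-quartile scaling gave 7 members lower (5.47% of all genes), no filter 4 (3.39%), and 10 reads in every library 8 (6.18%). DESeq2 called 21 members lower (14.8% of all genes, with 14.8% higher), and limma-voom with sample weights 30 lower (29.7% of all genes) and 3 higher (29.2%). Of the genes of the 5 lists of other synaptic genes (84 tested, 11 lower and 1 higher), DESeq2 called 29 lower and 3 higher and limma-voom 52 and 7, while upper-quartile scaling and no filter called 0 higher. With the replicate block edgeR called 0 of all genes, and so 0 members and 0 listed genes. Same-numbered libraries did not deviate together (correlations of deviations -0.16, -0.03 and 0.07 for numbers 1, 2 and 3), so the numbers were not taken as pairs. With single libraries left out, in edgeR or DESeq2, members numbered 0 to 30 lower and 0 to 2 higher, and listed genes 0 to 51 lower and 0 to 8 higher, with the highest counts when sham replicate 1 was left out, for which the cause was not tested. DESeq2 with single libraries left out was added after seeing the data. The signs of 5 members that passed no test in the fit of all libraries changed between settings, and the cause was not tested. With single libraries left out their log2 fold changes ranged over -0.14 to 0.0911 for camk2n2, -0.11 to 0.0563 for dlg5a, -0.0678 to 0.0934 for grin2bb and -0.11 to 0.34 for homer2. limma-voom gave 0.0612 for grin2bb and -0.00944 for homer3, and no filter gave 2.1e-05 for grin2bb. With single libraries left out the difference in share, injured minus sham, was 1.29 to 2.06 percentage points for the gria2 pair among gria reads and 0.970 to 1.87 for grin2bb, and that in Camk2n reads per 100 kinase reads 3.30 to 4.30.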

Other observations

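The genes of inhibitory synapses, which use glycine and GABA, were followed with a list as well. Of 11 tested genes 4 fell, none rose and 7 did not pass edgeR's test. Negative log2 fold changes were found in 10 of the 11 (median -0.63), against 52.7% of all genes tested. The glycine receptor gene glra1 measured 51.9, 54.1 and 62.0 CPM in injured replicates 1, 2 and 3, against 97.0, 123 and 132 CPM in sham replicates 1, 2 and 3, without overlap. Its log2 fold change was -1.07 (adjusted p = 0.0281 from edgeR). gphnb, of the scaffold protein gephyrin, had -0.77 (adjusted p = 0.0463). The summed level of the list was 379, 384 and 397 CPM in injured replicates 1, 2 and 3, against 510.3, 686 and 783 CPM in sham replicates 1, 2 and 3. DESeq2 called 7 lower (14.8% of all genes), and edgeR without sham replicate 1 called 10 lower (28.2% of all genes). With all libraries edgeR called 4.83% of all genes lower. The difference between inhibitory and glutamate synapse genes was not tested.

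Among marker lists, 3 of 8 ependymo-radial glia genes and 2 of 6 microglia and macrophage genes rose, 1 of 8 oligodendrocyte lineage genes rose, while DESeq2 called 4, 5 and 3 of them higher and 1 of the oligodendrocyte lineage lower. Without sham replicate 1 edgeR called 3 oligodendrocyte lineage genes lower and 2 higher. No gene of the skeletal muscle, cell cycle or oocyte lists passed edgeR's test with all libraries. At an unadjusted p under 0.05 edgeR had 0 muscle and 0 cell cycle genes and 8 oocyte genes, all lower, and DESeq2 called 0, 0 and 8. Without sham replicate 1 edgeR called 10 of 15 muscle and 10 of 10 cell cycle genes higher. Of 11 tested oocyte genes edgeR then called 1 lower. Of all genes tested, edgeR with all libraries called 4.83% lower and 5.81% higher, and DESeq2 14.8% lower and 14.8% higher. Without sham replicate 1 edgeR called 28.2% lower and 29.0% higher. At an unadjusted p under 0.05 with all libraries, edgeR had 19.6% of all genes lower and 18.6% higher.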
